A study of Mus musculus with 4 samples.

Results

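The genes described here are 36 genes of the lysosome and of autophagy, followed through the regeneration of mouse muscle. They were chosen by name, and all probe sets whose platform annotation gives 1 gene symbol, that symbol being in the list, were read: 71 probe sets for 35 of the 36 genes, out of 12394 named genes on the array. Cd63 was not analysed here, because no probe set of the annotation used gives it as its only symbol. The list holds 26 lysosomal genes (8 proteases, 7 glycosidases and lipase, 3 genes of lipid handling, 5 membrane proteins and 3 subunits of the proton pump) and 10 others (8 autophagy genes and the transcription factors Foxo1 and Foxo3).

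The samples were myogenic cells purified from hind limb muscle of C57BL/6 mice 8 to 12 weeks old, which had all received cardiotoxin, a toxin of snake venom that kills muscle fibres and so starts regeneration. They form 4 groups by time after the injury, day 2, day 3, day 5 and day 14, with 1 Affymetrix mouse 430A array each, and no uninjured group was analysed here. The cells were not cultured. SM/C-2.6, an antibody that recognises satellite cells, is named in the labels, and how many mice went into a sample is not stated there. With no replicates there is no replicate check, no p-value and no error of a day's value, and a gene is called by size alone, at 2-fold or more between both arrays. Values are MAS5 signals in arbitrary units, scaled so that all arrays share a 2% trimmed mean. The median over all arrays after scaling, 43.0, served as a floor below which signals count as 43.0, and a ratio with a floored signal on either side is written "at least".

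Lysosomes are acid compartments in which hydrolases digest proteins, sugars and lipids, and a proton pump in their membrane, the V-ATPase, keeps the acid pH that these enzymes need. In autophagy a double membrane closes around part of the cytoplasm and fuses with the lysosome. Transcription factors of the TFEB family switch on many lysosomal genes, FoxO factors switch on autophagy genes in muscle, and satellite cells, the stem cells of muscle, are known to need autophagy to keep their quiescent state.

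Most of these genes read higher late than early in regeneration. Of the 35 genes, 29 had both late signals (days 5 and 14) above both early signals (days 2 and 3), 3 had both late signals below both early ones, and 3 had neither order. Over the 7930 named genes that passed the floor on any array, 37.2% had both late signals above both early ones and 28.4% below. The 3 genes with the opposite order were Ctsl, Gla and Atp6v1h, and those with neither were Gusb, Gabarapl2 and Atg5. The signal was lowest on day 2 for 25 of the 35 genes and highest on day 5 for 16 and on day 14 for another 16. Of the 7930 named genes, 3756 were lowest on day 2, 1624 highest on day 5 and 2850 highest on day 14. Ties at the floor were counted for the earlier day. The signal was higher at every step for 11 of the 35 genes, which is 31.4%, against 14.7% of the named genes.

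**Figure D1:**
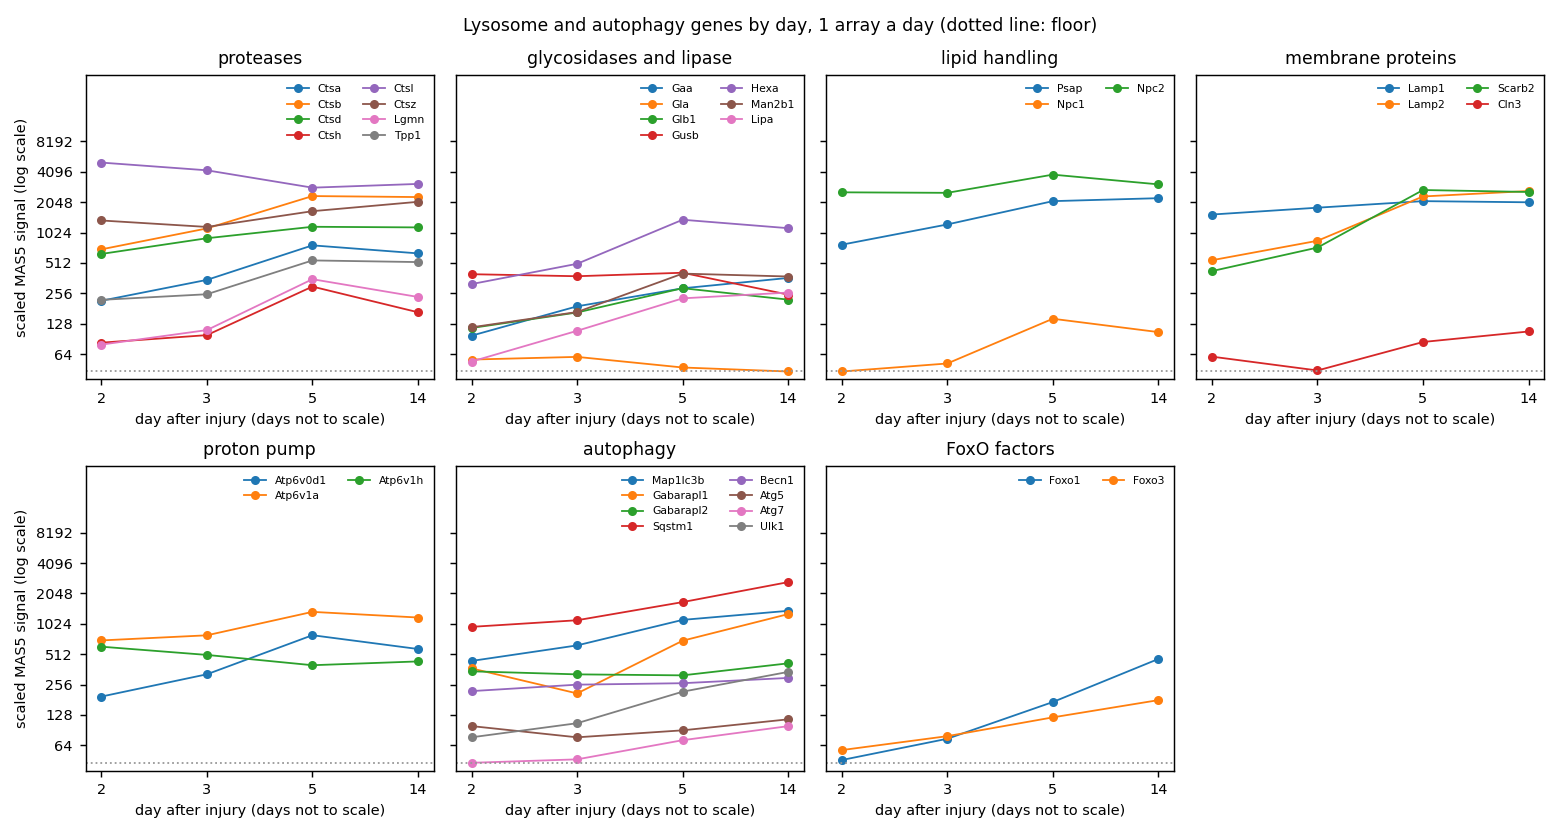
Scaled MAS5 signal (log scale) of the 35 genes by day after injury, in panels by role, 1 point per array and gene, with the floor of 43.0 as a dotted line. Scarb2, Lamp2, Hexa and Foxo1 read higher on days 5 and 14 than on days 2 and 3, while Ctsl and Atp6v1h lie lower on days 5 and 14 than on days 2 and 3.

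Most calls of the 3 consecutive steps came with day 5. On that day, 15 of the 35 genes were at least 2-fold higher than on day 3 and none was lower, where 11.6% of 7523 measured named genes were higher and 5.97% lower. The median log2 ratio of the 35 genes was 0.80, and that of all measured genes 0.06. Of the 25 lysosomal genes with a probe set, 12 were called higher, with a median of 0.94, and of the 10 autophagy and FoxO genes 3 were, with a median of 0.62. Bulk RNA cannot tell a change in each cell from a change in which cells were collected.

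Between day 3 and day 2 only Lipa was called among the 35 genes, where 6.69% of 6991 measured genes were higher and 1.80% lower, and the median log2 ratio was 0.26, against 0.06 for all genes. Lipa, lysosomal acid lipase, reached 109 on day 3 against 53.9 on day 2, a ratio of 2.02, and this call is lost with 3 other scalings of the arrays. Gaa, the acid alpha-glucosidase that breaks down glycogen, came next at 1.95-fold, with 190.0 on day 3 against 97.3 on day 2.

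Between day 14 and day 5 only Foxo1 was called among the 35 genes. Of the 25 lysosomal genes none passed 2-fold, 8 ratios lay above 0 and 17 below, and their median log2 ratio was -0.06. All 10 autophagy and FoxO ratios lay above 0, with a median of 0.51, and the call of Foxo1 is lost when its probe sets are averaged. Lists of the same pathways outside the 36 were mixed. Of 23 other lysosomal hydrolases 17 ratios lay above 0 and 6 below, with a median of 0.31. Of 24 other membrane and sorting genes 11 lay above and 13 below, with a median of -0.04. Of 13 other proton pump subunits 7 lay above and 6 below, with a median of 0.004. Of 29 other autophagy genes 20 lay above and 9 below, with a median of 0.16. In this comparison 4.81% of 7709 measured genes were higher and 3.10% lower, and the median of all genes was 0.01. Over 6 other settings of scaling, floor and probe set choice, the median of the lysosomal genes ranged from -0.15 to -0.01 and that of the other 10 from 0.39 to 0.56, with all 10 above 0 each time. Whether the lists differ beyond chance was not tested, and the day 5 array enters both this comparison and that of day 5 with day 3.

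**Figure D2:**
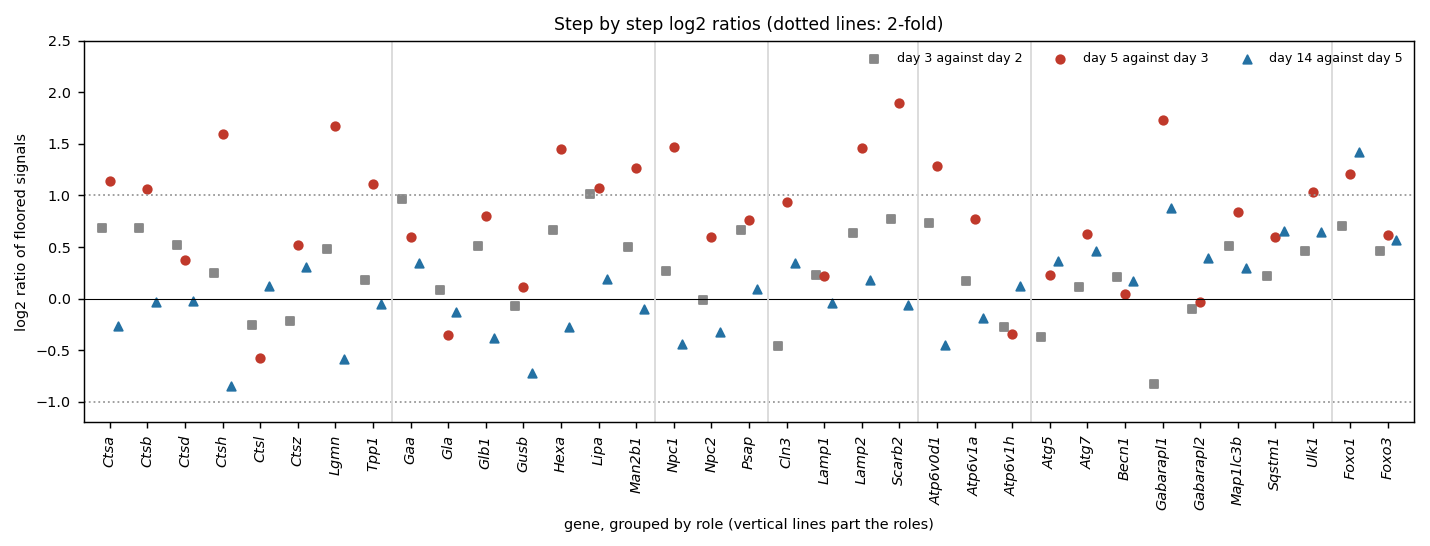
Log2 ratio of each gene at the 3 consecutive steps, grouped by role, with 1 array on each side of a ratio and 2-fold marked by dotted lines. The ratios of day 5 against day 3 (circles) pass 2-fold for 15 genes, and those of day 14 against day 5 (triangles) lie above 0 for all 10 autophagy and FoxO genes at the right.

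Over the whole course, 21 of the 35 genes were at least 2-fold higher on day 14 than on day 2 and none was lower, where 22.8% of 7668 measured genes were higher and 14.8% lower. The median log2 ratio was 1.30, against 0.20 for all genes. Among the 14 genes short of a call were Lamp1, Ctsd, Npc2, Glb1 and Becn1, which all read higher on day 14, and Ctsl, Gusb, Atp6v1h and Gla, which read lower. The labels of days 2 and 5 are worded alike, as are those of days 3 and 14, so ratios within each pair are given too. All 3 consecutive steps and day 14 against day 2 cross these pairs. There, a difference between days cannot be told apart from one between the pairs. The ratios within pairs do not place a change between day 3 and day 5. Day 5 had 19 of the genes higher than day 2 and none lower (19.8% and 11.4% of all measured genes), and day 14 set against day 3 had 17 higher and none lower (16.3% and 11.5%).

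**Figure D3:**
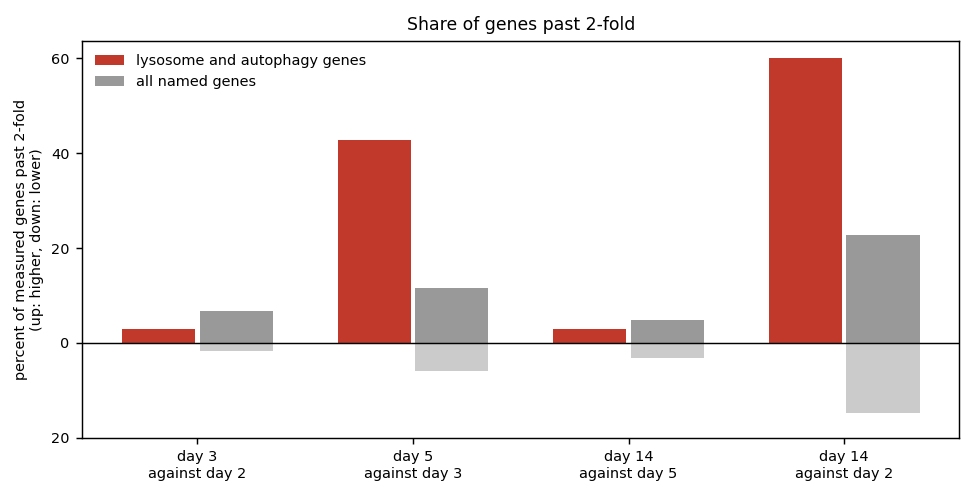
Percent of measured genes at least 2-fold higher (above the line) or lower (below it) in each comparison, for the 35 lysosome and autophagy genes and for all named genes. The share higher among the lysosome and autophagy genes is 42.9% on day 5 against day 3 and 60.0% over the whole course, and no lysosome or autophagy gene is lower in any of the 4 comparisons.

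Among the proteases, 5 of 8 were called higher on day 5 than on day 3. Legumain (Lgmn), an asparaginyl endopeptidase that also matures cathepsins, read 79.3, 110.5, 353 and 235 on days 2, 3, 5 and 14. Its day 5 signal was 3.19-fold that of day 3, and day 14 lay between them. Ctsh, an aminopeptidase of the cathepsin family, had the same shape at 82.9, 98.5, 298 and 166, and was 3.03-fold higher on day 5 than on day 3.

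Ctsb, cathepsin B, a cysteine protease found in nearly all cells, read 697, 1124, 2352 and 2299 on days 2, 3, 5 and 14. It was 2.09-fold higher on day 5 than on day 3 by its brightest probe set, and its 4 probe sets gave log2 ratios from 1.07 to 1.91. Ctsa, a carboxypeptidase that also protects beta-galactosidase and neuraminidase, read 216, 347, 764 and 636, and was 2.20-fold higher on day 5 than on day 3. Tpp1, the tripeptidyl peptidase lost in a childhood form of neuronal ceroid lipofuscinosis, read 220.2, 250.3, 542 and 522, and was 2.16-fold higher, with a log2 ratio of 0.67 in its other probe set and a call that averaging both ends (0.89).

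The remaining proteases did not pass 2-fold at any consecutive step. Ctsd, the aspartic protease cathepsin D, read 628, 898, 1167 and 1150.5 on days 2, 3, 5 and 14. Ctsz, a carboxypeptidase, read 1347, 1163, 1665 and 2063. Ctsl, cathepsin L, which is made and in part secreted by growing cells, ran the other way at 5049, 4233, 2848 and 3102. It was 1.63-fold lower on day 14 than on day 2, and no other of the 25 lysosomal genes had a ratio as far below 0 in that comparison.

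Among the glycosidases and the lipase, 3 of 7 were called higher on day 5 than on day 3. Hexa, the alpha subunit of hexosaminidase that degrades GM2 ganglioside, read 316, 501, 1370.2 and 1130.1 on days 2, 3, 5 and 14, and was 2.73-fold higher on day 5 than on day 3. Man2b1, lysosomal alpha-mannosidase, read 118, 167, 401 and 375, and was 2.40-fold higher. Its second probe set stayed under the floor on every array, and averaging both ends the call (log2 ratio 0.63). Lipa read 53.9, 109, 228 and 260.0, and was 2.10-fold higher on day 5 than on day 3. That call is lost with quantile normalization (log2 ratio 0.94) and when its probe sets are averaged (0.38), and its only other measured probe set gave 0.07.

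Gaa read 97.3, 190.0, 287 and 363 on days 2, 3, 5 and 14, passing 2-fold at no single step but 3.73-fold higher on day 14 than on day 2. Both of its probe sets gave log2 ratios near each other in that comparison, at 1.90 and 2.21. Glb1, lysosomal beta-galactosidase, the enzyme behind the stain for senescent cells, read 116, 165, 287 and 221, and was 1.74-fold higher on day 5 than on day 3. Gusb, beta-glucuronidase, stayed near 395, 378 and 409 on days 2, 3 and 5 and read 248 on day 14. Gla, alpha-galactosidase A, was dim throughout, at 56.4, 59.9, 47.1 and 34.9, the last under the floor.

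Of the 3 genes of lipid handling, 1 was called higher on day 5 than on day 3 and 2 on day 14 than on day 2. Psap, prosaposin, the precursor of the saposins that help hydrolases reach sphingolipids, read 775, 1231, 2094 and 2241 on days 2, 3, 5 and 14, and was 2.89-fold higher on day 14 than on day 2. Npc1, the membrane protein that exports cholesterol, read 31.8, 51.6, 143 and 106, was 2.78-fold higher on day 5 than on day 3, and at least 2.46-fold higher on day 14 than on day 2, and the call on day 5 is lost with the floor at 2 times its value (log2 ratio 0.74). Npc2, its soluble partner, was bright on all arrays at 2562, 2532, 3835 and 3072, and was not called in any comparison, with a ratio of 1.51 on day 5 against day 3.

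The membrane proteins held the largest ratio of the 35 genes between day 5 and day 3. Scarb2 encodes LIMP-2, which carries beta-glucocerebrosidase to the lysosome, and read 424, 726, 2699.8 and 2582 on days 2, 3, 5 and 14. It was 3.72-fold higher on day 5 than on day 3 and 6.08-fold higher on day 14 than on day 2. Its 2 probe sets gave log2 ratios of 1.89 and 1.31 between day 5 and day 3, and of -0.06 and -0.98 between day 14 and day 5, so the level on day 14 rests on which is read.

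Lamp2, a membrane glycoprotein needed for the fusion of autophagosomes with lysosomes, read 544, 848, 2331 and 2638 on days 2, 3, 5 and 14, and was 2.75-fold higher on day 5 than on day 3. Its 4 probe sets gave log2 ratios from 0.45 to 1.75, and Lamp2 transcripts are known to differ at their 3' end. Lamp1, its close relative, was bright and nearly level at 1543, 1804, 2095 and 2040.4, 1.16-fold higher on day 5 than on day 3. Cln3, a membrane protein lost in juvenile neuronal ceroid lipofuscinosis, was dim, at 60.3, 44.0, 84.2 and 107, and was 1.92-fold higher on day 5 than on day 3.

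The 3 proton pump subunits differed from each other. Atp6v0d1, a subunit of the membrane part, read 195, 324, 789 and 576 on days 2, 3, 5 and 14, and was 2.44-fold higher on day 5 than on day 3. Atp6v1a, the catalytic subunit, read 701, 787, 1345 and 1182, and was 1.71-fold higher, with a log2 ratio of 1.30 in its other probe set. Atp6v1h, a regulatory subunit, read 608, 503, 398 and 434, its late signals below its early ones, and was 1.26-fold lower on day 5 than on day 3.

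Promoters of lysosomal genes are known for the CLEAR element, to which TFEB and its relatives bind. Windows from 250 bases before to 50 bases after the start site were taken from RefSeq (GRCm38.p6), which gave 32851 windows of 27025 genes, and 31 of the 36 genes were found there. The 8-letter word CACGTGAC, which is part of that element, searched on both strands, stood in 9 of the 31 (Ctsa, Ctsd, Lgmn, Gla, Glb1, Lamp1, Cln3, Atp6v0d1 and Atg7), which is 29.0%, against 2.55% of all genes. The core CACGTG, which the longer word contains, stood in 13 of the 31, or 41.9%, against 8.09% of all genes. The FoxO word GTAAACA, on both strands, stood in none of the 31 and in 4.05% of all genes.

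The stretches around the match are shown for genes that were called on day 5 (Ctsa, Lgmn, Atp6v0d1) and for genes that were not (Ctsd, Lamp1, Cln3), each on the strand of its gene with the matched word in capitals, CACGTGAC or its reverse complement GTCACGTG (in Cln3 both overlap, and the first of these is marked). They lie at chr2:164833747-164833778 and chr2:164833766-164833797 on the plus strand (Ctsa), chr12:102439124-102439155 on the minus strand (Lgmn), chr8:105566050-105566081 on the minus strand (Atp6v0d1), chr7:142387906-142387937 on the minus strand (Ctsd), chr8:13159121-13159152 on the plus strand (Lamp1) and chr7:126583338-126583369 on the minus strand (Cln3).
Ctsa, first match: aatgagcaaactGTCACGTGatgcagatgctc
Ctsa, second match: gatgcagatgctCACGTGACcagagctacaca
Lgmn: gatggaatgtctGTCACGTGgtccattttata
Atp6v0d1: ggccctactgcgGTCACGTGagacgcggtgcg
Ctsd: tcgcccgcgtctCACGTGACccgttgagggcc
Lamp1: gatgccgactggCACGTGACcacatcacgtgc
Cln3: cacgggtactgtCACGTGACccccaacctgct

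The match began 14 bases before and 6 bases after the start site in Ctsa, and 51 bases before it in Lgmn, 5 in Atp6v0d1, 98 in Ctsd (the nearer of 2 matches), 28 in Lamp1 and 121 in Cln3. Between day 5 and day 3 the 9 genes with the 8-letter word had a median log2 ratio of 0.80 and 3 calls, against 0.77 and 9 calls for the 21 measured genes without it. Between day 14 and day 2 the medians were 0.93 for those with it and 1.64 for those without, with 4 and 14 calls. Scarb2, with the largest ratio between day 5 and day 3, holds neither the word nor its core in its window at chr5:92505608-92505907 on the minus strand, shown in full in lower case because nothing in it matched.
Scarb2: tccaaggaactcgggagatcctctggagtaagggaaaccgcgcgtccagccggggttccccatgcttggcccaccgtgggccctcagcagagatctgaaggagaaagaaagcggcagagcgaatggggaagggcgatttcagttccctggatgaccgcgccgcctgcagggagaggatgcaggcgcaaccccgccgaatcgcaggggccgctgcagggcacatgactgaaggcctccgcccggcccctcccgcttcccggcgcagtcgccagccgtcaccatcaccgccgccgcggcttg

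Of 8 autophagy genes, 2 were called higher on day 5 than on day 3 and 5 on day 14 than on day 2. Among the ubiquitin-like proteins that are joined to the growing membrane, Gabarapl1 read 370.1, 209, 696 and 1278 on days 2, 3, 5 and 14. It was lowest on day 3, was 3.33-fold higher on day 5 than on day 3 and 3.45-fold higher on day 14 than on day 2, and its 2 probe sets gave log2 ratios of 1.73 and 1.54 between day 5 and day 3. Map1lc3b, which encodes LC3B, the usual marker of autophagosomes, read 439, 626, 1119.7 and 1377, and was 3.14-fold higher on day 14 than on day 2. Gabarapl2 stayed level at 346, 323, 316 and 415.

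Sqstm1, the receptor p62 that brings ubiquitin-tagged cargo to the autophagosome and is itself degraded there, read 955, 1110.5, 1680.1 and 2649.8 on days 2, 3, 5 and 14. It passed 2-fold at no consecutive step and was 2.77-fold higher on day 14 than on day 2. Ulk1, the kinase that starts autophagy, read 76.8, 106, 218 and 342, and was 2.05-fold higher on day 5 than on day 3 and 4.45-fold higher on day 14 than on day 2. The first of these calls is lost with quantile normalization (log2 ratio 0.90) and when its probe sets, one of them always under the floor, are averaged (0.52).

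Becn1, Atg5 and Atg7 were called at none of the 3 consecutive steps. Becn1, beclin 1, a part of the lipid kinase complex that starts the membrane, read 220.4, 255, 264 and 298 on days 2, 3, 5 and 14, and its 4 probe sets gave log2 ratios from -1.19 to 0.14 between day 5 and day 3. Atg5, one partner of the conjugate that attaches LC3, read 99.3, 76.8, 90.1 and 116. Atg7, the activating enzyme of both conjugation systems, was dim, at 38.2, 46.5, 71.9 and 99.1, and was at least 2.31-fold higher on day 14 than on day 2.

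Both FoxO factors were called higher on day 14 than on day 2. Foxo1 read 45.7, 74.3, 172 and 459 on days 2, 3, 5 and 14, and was 2.31-fold higher on day 5 than on day 3, 2.67-fold higher on day 14 than on day 5, and 10.0-fold higher on day 14 than on day 2. Its 3 measured probe sets gave log2 ratios from 2.20 to 3.36 in the last of these comparisons, and from 0.17 to 1.98 between day 5 and day 3, where averaging them ends the call (0.84). Foxo3 read 57.4, 78.9, 121 and 179, passed 2-fold at no consecutive step, and was 3.13-fold higher on day 14 than on day 2.

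Genes outside the 36 that belong to the same pathways were read as lists. Of 24 other lysosomal hydrolases with a probe set, 22 were measured between day 5 and day 3, 6 of them only because of their day 5 signal. Of the 22, 9 were called higher and none lower, against 11.6% and 5.97% of all genes, and their median log2 ratio was 0.87. The 4 largest were Ctsk, the collagen-degrading cathepsin K (369 on day 5 against 59.6 on day 3), Manba (161 against 48.0), Ctsc (647 against 195) and Ctsf (137 on day 5 and under the floor on day 3). Between day 14 and day 5, Ctsf was 3.30-fold higher and Ctsc 3.92-fold lower, the other 21 of 23 were not called, and 17 of the 23 ratios lay above 0. On day 14 against day 2, 13 of 23 were higher and 1 lower, where 22.8% of all genes were higher and 14.8% lower. Of these 23, 11 were under the floor on day 2, so they could not read lower. The 1 called lower was Hyal2, a hyaluronidase, at 106 against 256.

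Of 24 other measured genes of the lysosomal membrane and of sorting, 3 were higher on day 5 than on day 3 and none lower, a share of 12.5% that is near the 11.6% of all genes. They were Igf2r, the receptor that sorts hydrolases by mannose 6-phosphate, at 797 on day 5 against 178 on day 3, Litaf at 2203 against 1016, and Cln6 at 156 against 73.2. Of 14 other proton pump subunits with a probe set, none was called at any of the 3 consecutive steps. Between day 14 and day 2, 1 of 13 measured, Atp6v0a1, was higher and 1, Atp6v1b2, lower, which is 7.69% each way. Of all genes, 22.8% were higher and 14.8% lower in that comparison, and the median of these subunits was 0.27. Atp6v0a1 was under the floor on day 2, so it could not read lower. Between day 3 and day 2, 6.69% of all genes were higher and 1.80% lower. Of 17 measured other hydrolases, 2 (Gm2a and Arsa) were called higher and none lower. Of 23 measured membrane and sorting genes, 3 (Igf2r, Gga1 and Sort1) were called higher and none lower. A floored signal entered 6 of the 17 ratios and 3 of the 23. Gm2a and Sort1 were under the floor on day 2 and measured only because of their day 3 signal, so they could not read lower. On day 14 against day 2, 8 of 24 membrane and sorting genes were higher and 1 lower, where 22.8% of all genes were higher and 14.8% lower. The 1 called lower was Ap1s1, a subunit of a sorting adaptor, at 194 against 514. Of the 24 ratios in that comparison, 18 lay above 0 and 6 below, and 4 had a floored signal on day 2.

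Of 29 other autophagy genes 5 were higher and none lower on day 5 against day 3, which is 17.2% against 11.6% of all genes. On day 14 against day 2, 12 were higher and none lower, which is 41.4% against 22.8% of all genes. In the first comparison 3 of the 29 were under the floor on day 3, and in the second 7 were under it on day 2. Those genes were measured only because of their later signal, so they could not read lower. Dram1, a lysosomal membrane protein induced by p53, had the largest of the day 5 ratios, at 248 on day 5 against 95.5 on day 3. Map1lc3a, a close relative of Map1lc3b, read 54.6, 166, 398 and 427 on days 2, 3, 5 and 14. Trp53inp1, a stress-induced protein that binds LC3, was the only one called between day 14 and day 5, at 437 on day 14 against 189 on day 5.

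Of the TFEB family 3 members were read, and Tfe3 was not analysed here. Tfeb read 21.0, 52.2, 53.7 and 96.5 on days 2, 3, 5 and 14, Mitf read 32.6, 47.1, 71.6 and 81.2, and Tfec lay under the floor throughout. Tfeb was at least 2.25-fold higher on day 14 than on day 2. Of 13 measured MiT/TFE factors and mTORC1 regulators, 2 were higher on day 5 than on day 3, Sesn1, a sestrin that restrains mTORC1, at 419.8 against 172, and Tsc1 at 128 against 62.0. That share, 15.4%, is near the 11.6% of all genes. Of 15 known FoxO targets, 7 were higher and none lower on day 5 against day 3, led by Txnip, an inhibitor of thioredoxin, at 459 against 62.6. Fbxo32, the atrophy ubiquitin ligase atrogin-1, was higher on day 5 (326) than on day 3 (93.8). It was lower on day 14 (61.8) than on day 5, unlike Foxo1, and was the only target called lower at that step. There 4 of the 15 targets were higher, where 4.81% of all genes were higher and 3.10% lower. Of the 15 ratios 9 lay above 0 and 6 below, with a median of 0.28.

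Markers of other cells also read higher on the days when the lysosomal genes did. Macrophages are rich in lysosomes. Of 24 macrophage markers, 4, 9, 17 and 17 were above the floor on days 2, 3, 5 and 14. The 24 had a summed signal of 432, 1581, 4640 and 3922. Lyz1 gave the largest part of the day 5 sum, at 1980, followed by Ctss at 482 and Lyz2 at 407. The list is not free of lysosomal genes. It holds Ctss, a cathepsin, and Cd68, which is also counted among the other lysosomal membrane and sorting genes. Between day 5 and day 3, 11 of 17 measured macrophage markers were higher and none lower, where 11.6% of all measured genes were higher and 5.97% lower. Of the 17, 8 were under the floor on day 3. Those 8 were measured only because of their day 5 signal, so they could not read lower. Among the defining macrophage markers, Csf1r read 20.2, 91.0, 316 and 269, Adgre1 23.7, 52.6, 106 and 86.5, Cd68 24.4, 51.8, 88.8 and 128, and Ptprc 13.1, 14.1, 59.7 and 54.5. Itgam lay under the floor on every array, as did Fcgr1, Cd163, Aif1, Cybb and Spi1. The part of macrophage RNA in the lysosomal ratios was not tested.

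Fibroblast markers also read higher late, with a summed signal over 11 markers of 655, 857, 3999 and 10869 on days 2, 3, 5 and 14. Between day 5 and day 3, 5 of 5 measured were higher, where 11.6% of all measured genes were. Of these 5, Pdgfra and Cd248 were under the floor on day 3 and were measured only because of their day 5 signal. Dpt, Dcn and Lum, genes of the extracellular matrix, made up most of that sum, with 5877, 2935 and 1750 on day 14, while Dpp4, Clec3b, Osr1, Twist2 and Tcf21 lay under the floor on every array. The 12 endothelial markers summed to 146, 215, 332 and 833, with 0, 1, 3 and 6 of them above the floor on days 2, 3, 5 and 14. Pecam1, Cdh5, Tie1, Emcn, Erg and Flt1 lay under the floor on every array. Neutrophil markers were under the floor apart from Mmp9 on day 5. Myogenic markers summed to 9956, 17358, 16473 and 16445 over 12 genes. Cdh15, M-cadherin, read 350.0, 1606, 1884 and 1653, Myod1 2272, 1405, 500.2 and 935, Myog 261, 3876, 1839 and 1835, and Pax7 35.7, 59.4, 217 and 323, so Pax7, the satellite cell factor, lay under the floor on day 2. RNA length can be read from control probe sets at both ends of a transcript, whose 3' to 5' ratio for Gapdh was 2.17, 1.88, 2.87 and 2.84 on days 2, 3, 5 and 14, and that of Actb 1.80, 2.20, 2.19 and 2.14. The part of the other cells and of RNA length in the ratios was not tested.

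**Figure D4:**
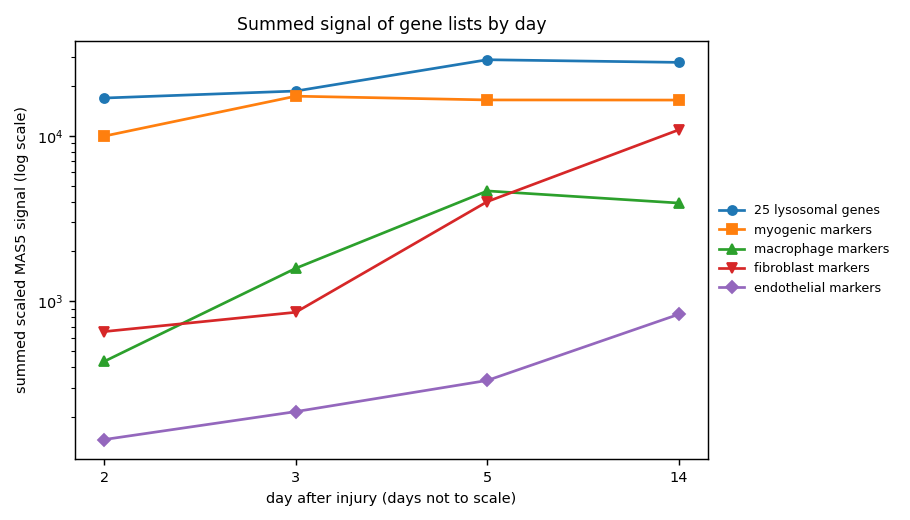
Summed scaled MAS5 signal (log scale) by day after injury for the 25 lysosomal genes and for markers of myogenic cells, macrophages, fibroblasts and endothelial cells, 1 array a day. The lysosomal genes sum to 28832 on day 5 against 18645 on day 3, and the macrophage markers to 4640 on day 5 against 1581 on day 3.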

How the data were processed

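The deposited table holds signal intensities (linear, 1 value for each probe set on each array) that the authors made with MAS5, per the submitters' processing notes. No source used here gives its settings or scaling target. Per the labels' protocols, RNA was labelled with biotin by an assay for small samples, and such amplification favours probes near the 3' end. Each array (22690 probe sets) was scaled to the common 2% trimmed mean, with factors of 0.997, 1.13, 0.917 and 0.976 on days 2, 3, 5 and 14, set to the floor of 43.0, and logged. The scaled medians still differed (29.5, 41.7, 49.1 and 52.8), so dim genes tended to read higher late. A gene was represented by the brightest of its probe sets by mean log2 signal, and 21 of the 35 genes had several. The SD of log2 ratios between probe sets of 1 gene was 0.36, 0.37 and 0.32 at the 3 consecutive steps and 0.55 over the whole course. The annotation named 20393 probe sets with 1 symbol and 691 with several, which were left out, and 1606 had none. The number of arrays limits the precision. The genes, lists and comparisons were chosen with earlier results of these data known. Named are all 36 genes, defining markers, and of each further list up to 4 of the largest calls per comparison, with Tfeb, Mitf and Tfec added after their values were seen, and Gapdh and Actb as controls of RNA length. Of the further lists only some of the genes that the rule allows are named, chosen with their values known, and the others are only counted. The short motif words searched in promoters come from general knowledge, not from the files. Ratios were computed with pandas 2.3.3 in Python 3.11.15, and the steps were tested on simulated data.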

Additional observations from a re-analysis of the deposited data

How the results depend on the processing

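No called ratio and no median over the genes changed its sign under 6 alternatives of scaling, floor and probe set choice. The count of genes higher on day 5 than on day 3 ranged from 11 to 20 (20 of 35 with the values as deposited, where 18.2% of all genes were higher and the median of all genes was 0.33) and the median log2 ratio from 0.63 to 1.10, which was 0.59 to 0.85 above that of all genes. For day 14 against day 2 the count ranged from 18 to 21. Of the 15 genes called on day 5, 9 were called under all 6 alternatives (Ctsa, Ctsb, Ctsh, Lgmn, Hexa, Lamp2, Scarb2, Atp6v0d1 and Gabarapl1), as were 16 of the 21 called over the whole course (not Ctsh, Man2b1, Lipa, Npc1 and Atg7). The call of Lipa on day 3 was lost (0 genes) with the values as deposited, with quantile normalization, with a common median of bright probe sets and with a floor at 2 times the median, and with the values as deposited 1 gene was lower on day 3, Gabarapl1. Averaging the probe sets of a gene left 0 genes higher between day 14 and day 5. At 1.5-fold, which loosens the call, 10 of the 35 genes were higher and 1 lower on day 3 than on day 2. Of all measured genes, 17.8% were higher and 9.1% lower. On day 5 against day 3, 25 were higher and none lower (22.9% and 17.1% of all measured genes). On day 14 against day 5, 4 were higher, near the share of all measured genes, and 2 lower (12.2% and 10.3%). On day 14 against day 2, 26 were higher and 2 lower (35.3% and 24.3%). No paired analysis was possible because each day has 1 array. Signal limits what can be said of Gla, Npc1, Atg7, Cln3 and Foxo1, which lay at or near the floor on at least 1 array.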
